A study of Rattus norvegicus with 12 samples.

Results

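The SR splicing factor family was examined through 10 genes, Srsf1, Srsf2, Srsf3, Srsf4, Srsf5, Srsf6, Srsf7, Srsf9, Srsf10 and Srsf11, chosen by name from the 22442 gene records of an RNA-seq expression table of rat synovial cells. Each name was carried by 1 record, so no choice between records was needed, and all 10 records were among the 11611 that were tested. The question asked of them was whether the higher level of Srsf9 at the middle dose of a bile acid was accompanied by other SR genes. Srsf9 is a gene that the study picked out from these libraries, and its own rise was known when the question was put, so its test is not independent evidence.

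The study cultured fibroblast-like synoviocytes (FLS), the fibroblast-like lining cells of the joint, from male Sprague Dawley rats with adjuvant arthritis (AA) induced by complete Freund's adjuvant (CFA). Third-passage FLS were kept for 12 h in DMEM alone (FCA group) or with taurochenodeoxycholic acid (TCDCA), a taurine-conjugated bile acid, at 10 µM (AT10 group), 1 µM (AT1 group) or 0.1 µM (AT01 group), and 3 poly(A) RNA libraries were made for each of the 4 groups. All 4 groups were thus arthritic cells, no group came from healthy rats, and the age of the rats is not given in the sources used here. The paper describes the replicate numbers 1 to 3 as sets of repeated studies, without saying whether a set or a library had its own rats or cultures, so a p-value here measures the spread between libraries, which may be technical.

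SR proteins bind exons through RNA recognition motifs and use a tail rich in arginine and serine to bring the U1 and U2 particles of the spliceosome to the splice sites. Their activity and place in the cell depend on phosphates added to that tail by SRPK and CLK kinases. Many SR genes also limit their own mRNA, by including a "poison" exon that sends the transcript to nonsense-mediated decay (NMD).

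Levels are FPKM, fragments scaled to transcript length and to the mapped fragments of the library, which and allows genes to be compared. The values came without read counts, so the depth behind a level is unknown. FPKM summed to between 284210 and 309696 per library. Of 12 FLS marker genes, 10 had a record of that name and all 10 were tested, with a summed level of 3690 to 5577 FPKM. A few genes set such sums. Vim alone was 1941.6 to 3083.65 FPKM, while Prg4 was 26.78 to 37.49 and Vcam1 2.55 to 5.7. The 5 macrophage and leukocyte markers with a record of 9 listed summed to between 5.71 and 21.9 FPKM, the 4 endothelial markers of 6 to between 0.07 and 0.21, all 6 chondrocyte markers to between 4.73 and 10.13, and the 4 smooth muscle markers of 5, which cultured fibroblasts also express, to between 158.9 and 410. None of the listed records was at 0 in all libraries, and the 4 endothelial records all averaged under 1 FPKM. In AT1 the leukocyte markers spanned 5.71 to 17.6 FPKM and in FCA 6.49 to 21.9. Most of this was Cd14, at 3.6 to 15.73 FPKM in AT1 and 4.6 to 18.82 in FCA. The smooth muscle markers summed to 306.9 to 410 FPKM in FCA, above the 251.6 to 290.1 of AT1, the 158.9 to 302.8 of AT10 and the 223.3 to 287.5 of AT01, and the part of other cell types in the results was not tested. In bulk RNA, fewer cells that express a gene and less of its RNA per cell cannot be told apart.

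The upstream sequences of 3 members are shown because they set the gene that rose, Srsf9, beside the pair with a lower mean than FCA at every dose, Srsf4 and Srsf6, a choice made after the values were seen. They were taken from the RefSeq promoter table of build GRCr8, which held all 10 members, and run 5′ to 3′ on the strand of the gene. Capitals mark GGGCGG (GC box) and TGACG (the core of a cAMP response element) on either strand, and bases within an annotated gene are left out. For Srsf9 this leaves the stretch between its own annotated span and that of its neighbour Dynll1, chr12:46945214-46945290 on the minus strand, and its GC box lies outside this stretch. The Srsf4 stretch is chr5:149345288-149345537 and the Srsf6 stretch chr3:172008822-172009071, both on the plus strand.
Srsf9: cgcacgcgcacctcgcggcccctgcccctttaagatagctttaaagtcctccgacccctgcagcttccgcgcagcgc
Srsf4: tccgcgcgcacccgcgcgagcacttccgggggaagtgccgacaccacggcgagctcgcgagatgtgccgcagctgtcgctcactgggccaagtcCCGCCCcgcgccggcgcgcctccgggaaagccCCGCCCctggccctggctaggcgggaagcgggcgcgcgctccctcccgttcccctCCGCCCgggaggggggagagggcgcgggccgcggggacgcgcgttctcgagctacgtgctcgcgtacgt
Srsf6: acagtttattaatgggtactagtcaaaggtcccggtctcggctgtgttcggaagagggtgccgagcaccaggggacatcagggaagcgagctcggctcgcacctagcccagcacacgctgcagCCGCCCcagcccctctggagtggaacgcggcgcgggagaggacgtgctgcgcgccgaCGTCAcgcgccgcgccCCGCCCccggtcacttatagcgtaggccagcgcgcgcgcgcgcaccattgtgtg

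Over the whole 250 bases before the RefSeq start, the 10 members were searched on both strands for 5 motifs beside all 33469 promoters of the table. The GC box GGGCGG was in 8 of 10 members, Srsf9 included, and in 30.5% of all promoters. The window of Srsf9 reached into the annotated spans of Srsf9 itself and of Dynll1, and its GC box lay in the part within that of Dynll1. TGACG was in 6 members (Srsf1, Srsf3, Srsf5, Srsf6, Srsf10 and Srsf11), not in Srsf9, and in 18.2% of all promoters. The full palindrome TGACGTCA, which contains TGACG, was in 0 members and in 1.59% of promoters. CCAAT was in 4 members (Srsf1, Srsf2, Srsf3 and Srsf10) and in 34% of promoters, and TATAAA in 2 members (Srsf2 and Srsf3) and in 12.9%. The window of Srsf9 was 70.4% G and C. Those of the 10 members ran from 58.8% (Srsf1) to 77.2% (Srsf4), against a median of 51.2% for all promoters. The motif counts were not adjusted for this composition. A match of letters is a description of the sequence and not a binding site.

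Srsf9 (record MSTRG.4849), also known as SRp30c, is a short SR protein with a pair of RNA recognition motifs that has been tied to the splicing of the glucocorticoid receptor. FCA had levels of 14.19, 15.7 and 15.56 FPKM, and AT1 had 33.01, 35.53 and 30.19. In AT01 it was 16.41, 17.48 and 13.47 FPKM, and in AT10 it was 14.97, 29.37 and 14.34 FPKM. Every AT1 library was thus above every FCA and every AT01 library, and AT10 was split, with replicate 2 close to AT1 and replicates 1 and 3 inside the range of FCA and AT01. Sorted by level, 8 libraries lay between 13.47 and 17.48 FPKM and 4 between 29.37 and 35.53. The empty stretch between them was 0.717 wide on the log2(FPKM + 1) scale, against 0.353 for the wider of the sides. A gap wider than either side, with more than 1 library on each side, was found in 1 of the 10 members and in 11.9% of all records tested. When the gap also had to be at least 1 wide, 0 of the 10 members and 4.52% of all records remained.

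**Figure D1:**
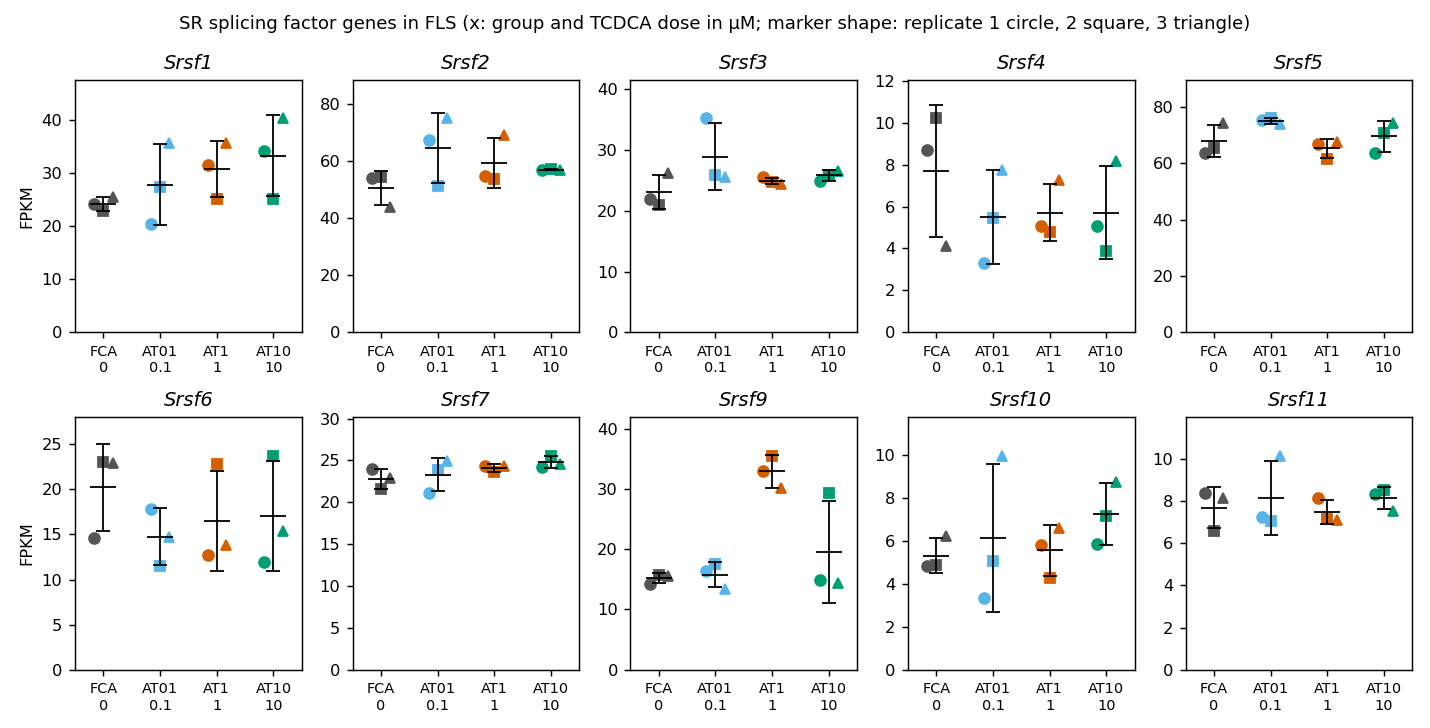
Level of each of the 10 SR genes in FPKM (vertical axis, from 0) in the 12 libraries, by group and TCDCA dose in µM (horizontal axis). Points are libraries, and the black bar and whiskers are the mean ± SD of 3. Srsf9 is the only panel of the 10 in which all 3 AT1 points lie above all FCA points, from 30.19 to 35.53 FPKM, with 1 AT10 point beside them at 29.37.

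The mean level of Srsf9 was 15.15 ± 0.834 FPKM in FCA and 32.91 ± 2.67 in AT1 (SD, n = 3 each), a ratio of means of 2.17. On the log2(FPKM + 1) scale, which is used for every difference below, Srsf9 rose by 1.07 in AT1 (SE 0.0816, 95% interval 0.87 to 1.27, limma with Benjamini-Hochberg adjustment over all records, adjusted p = 0.0288). The two-sided exact permutation test gave p = 0.1, the smallest that 3 libraries against 3 allow. Srsf9 was 1 of 11 records past an adjusted p under 0.05 in this comparison, 0.0947% of those tested. It also met the cut-off used by the study (a difference beyond 1 in either direction and a p below 0.05 before adjustment), as did 0.62% of all records. A higher level without overlap, as Srsf9 had, was found for 9.87% of all records. Without FCA replicate 1, 2 or 3 or AT1 replicate 1, the change was 1.03, 1.09, 1.09 and 1.07 and the limma adjusted p was 0.0623, 0.0851, 0.0756 and 0.0948, so the call was lost in 4 of 6 such fits. It was also lost in 1 fit over all 12 libraries, where the limma adjusted p was 0.314, and with the replicate number as a block, where it was 0.323.

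At the other doses Srsf9 did not pass in these libraries. The paper reports significantly higher SRSF9 mRNA by q-PCR and protein by western blot at every dose, measurements that were not analysed here. AT01 had 15.79 ± 2.08 FPKM (SD, n = 3), a difference from FCA of 0.049 with a 95% interval of -0.23 to 0.33 (limma adjusted p = 0.932). AT10 had 19.56 ± 8.5 FPKM, a difference of 0.27 with an interval of -0.41 to 0.96 (limma adjusted p = 0.695). Without AT10 replicate 2 that difference was -0.044. The wide interval in AT10 still holds changes of almost the size measured in AT1.

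Between doses, Srsf9 in AT1 was 1.02 above AT01 (SE 0.119, limma adjusted p = 0.113), with no overlap of the groups. There too Srsf9 met the cut-off of the study, as did 0.568% of all records. No member passed an adjusted p under 0.05 between these doses, which 0.129% of all records did, and 2 of 10, Srsf9 and Srsf5, had groups without overlap (8.6% of all records). The cut-off was no longer met without AT1 replicate 2 (a change of 0.96) or without AT01 replicate 3 (0.92). AT10 was 0.594 times AT1 by the ratio of means, a log2 difference of -0.79 (SE 0.278, limma adjusted p = 0.748), also without overlap, as for 8.16% of all records in that direction. No member passed an adjusted p under 0.05 there, against 0.258% of all records. Without AT10 replicate 2 the difference was -1.11 and passed (limma adjusted p = 0.0376). Over all 9 TCDCA libraries against FCA, the difference of Srsf9 was 0.46 (limma adjusted p = 0.558) and the groups overlapped, as they did for all 10 members, while 2.86% of all records had no overlap and 0.0258% passed the adjusted threshold. Between AT10 and AT01, 0 of 10 members passed it by limma (0.0689% of all records; the lowest unadjusted p was 0.228) or had groups without overlap (11.1%).

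By the same test, no rise was called in AT1 for any of the other 9 members, although 5 of the 9 had a higher mean than FCA. None passed an adjusted p under 0.05 in AT1 against FCA, none passed the unadjusted threshold in the fit of the 2 groups, which 11% of all records did, and none had groups without overlap, which 19.9% of all records had. Their differences ran from -0.32 (Srsf4) to 0.32 (Srsf1), with limma adjusted p from 0.453 to 0.921. In the fit of the 2 groups, the highest upper end of their 95% intervals was 0.65. The lower end for Srsf9 was 0.87, so the intervals of all 9 lay below that of Srsf9 in this fit. For 8 of the 9, the interval lay between -1 and 1, and the exception was Srsf4, whose interval reached -1.13. The SE was larger in 1 fit over all 12 libraries, at 0.23 in place of 0.082 for Srsf9 and 0.22 in place of 0.13 for Srsf1. Intervals were not compared in that fit. The median difference of the 9 was 0.047, and that of all records tested was 0.016.

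**Figure D2:**
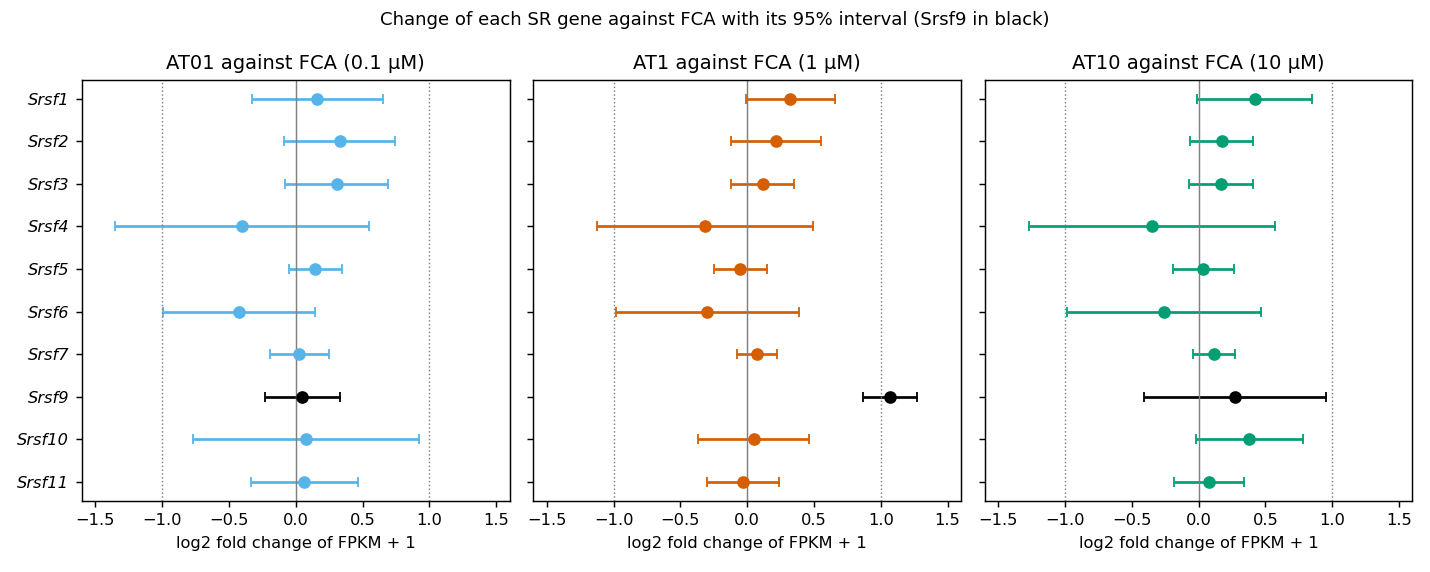
Difference of each SR gene from FCA on the log2(FPKM + 1) scale (horizontal axis) at 0.1, 1 and 10 µM TCDCA, with the 95% interval of the limma fit of 3 libraries against 3. Srsf9, in black, stands at 1.07 at 1 µM, to the right of all 9 other intervals, and its interval crosses 0 at the other doses.

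The difference was also taken within each library, as Srsf9 minus each other member on the log2 scale, which reduces the effect of a factor that scales a whole library, though not fully because 1 was added to each level. In AT1 against FCA this difference grew by between 0.75 (against Srsf1) and 1.39 (against Srsf4), and the groups did not overlap for 9 of 9 members (two-sided exact permutation test, p = 0.1 for each, the smallest possible). In AT10 the change ran from -0.14 to 0.62 and in AT01 from -0.28 to 0.47, and the groups overlapped for every member. All 9 differences contain the same Srsf9 levels, which did not overlap between AT1 and FCA on their own. The 9 results are therefore not separate from each other or from the rise of Srsf9. How many other records would give the same was not counted. All 3 comparisons share the FCA libraries.

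As a share of the summed FPKM of the 10 genes, Srsf9 held 5.94% to 6.39% in FCA, 4.63% to 6.97% in AT01, 10.6% to 13.5% in AT1 and 5.17% to 10.6% in AT10, where the top value was replicate 2. Ranked by level among the 10, it was at 3 or 4 in AT1, at 3 in AT10 replicate 2 and at 6 or 7 in the other 8 libraries. The sum of the other 9 members was 229.6 ± 4.88 FPKM in FCA, 254.1 ± 22.3 in AT01, 239.5 ± 14.6 in AT1 and 248.6 ± 13.9 in AT10 (SD, n = 3 each). The mean of this sum was thus lowest in FCA, and the range of the TCDCA libraries, 227.9 to 277.7 FPKM, overlapped that of FCA.

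Srsf1 (MSTRG.3255), the close relative of Srsf9 also known as ASF/SF2 and the founding member of the family, had the largest upward difference of the other 9 in AT1. Its level was 24.3, 22.9 and 25.45 FPKM in FCA and 31.55, 25.12 and 35.64 in AT1. In AT10 it was 34.24, 25.21 and 40.38 FPKM, and in AT01 20.51, 27.34 and 35.74. In AT1 and in AT10, 2 of 3 libraries lay above all FCA libraries, and replicate 2 of each lay inside the FCA range. The difference from FCA was 0.32 in AT1 (95% interval -0.013 to 0.65), 0.42 in AT10 (-0.0089 to 0.85) and 0.16 in AT01 (-0.33 to 0.65), with limma adjusted p of 0.453, 0.427 and 0.855. Without AT1 replicate 2 the difference in AT1 was 0.45 and without AT1 replicate 3 it was 0.21. Without AT10 replicate 3 the difference in AT10 was 0.27, without AT01 replicate 1 that in AT01 was 0.36, and without AT01 replicate 3 it was -0.029. AT10 replicate 2 and AT1 replicate 2 were low for Srsf1 and high for Srsf9, and the correlation of the pair over the 12 libraries was -0.033.

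Srsf2 (MSTRG.3684), or SC35, a nuclear SR protein that marks nuclear speckles, was the second most abundant member. Its level was 53.99, 54.34 and 43.87 FPKM in FCA and 54.8, 53.86 and 69.25 in AT1. In AT10 it was 56.97, 57.16 and 57.05 FPKM, and in AT01 67.43, 51.15 and 75.01. The 3 AT10 libraries were all above the FCA libraries by a narrow margin, and AT1 and AT01 overlapped FCA. The difference was 0.17 in AT10 (limma adjusted p = 0.517), 0.22 in AT1 (0.547) and 0.33 in AT01 (0.742). Without FCA replicate 3 it was 0.074 in AT10 and 0.12 in AT1, and without AT1 replicate 3 it was 0.10 in AT1. Over all libraries left out in turn, the difference in AT01 ran from 0.21 to 0.49.

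Srsf3 and Srsf7 are the small SR proteins SRp20 and 9G8, which also link splicing to mRNA export. Srsf7 (MSTRG.14525) was 22.82 ± 1.2 FPKM in FCA, 23.28 ± 1.99 in AT01, 24.07 ± 0.443 in AT1 and 24.78 ± 0.714 in AT10 (SD, n = 3 each). Its AT10 libraries, 24.18, 25.57 and 24.59 FPKM, were all above those of FCA, 23.96, 21.57 and 22.92, with a difference of 0.12 (95% interval -0.043 to 0.27, limma adjusted p = 0.517). Srsf3 (MSTRG.10366) was 21.95, 20.87 and 26.15 FPKM in FCA and 25.47, 24.69 and 24.43 in AT1, a difference of 0.11 with overlap. Its mean in AT01 was 28.82 ± 5.51 FPKM, against 22.99 ± 2.79 in FCA (SD, n = 3 each), a difference of 0.30 (95% interval -0.083 to 0.69, limma adjusted p = 0.742). In AT01 replicate 1 it reached 35.18 FPKM, and the other 11 libraries lay between 20.87 and 26.56. By symbols made of the gene name and a -ps number, RefSeq lists 10 pseudogenes of Srsf3, 7 of Srsf7, 3 of Srsf10, 2 of Srsf6, 1 of Srsf5 and 0 of the other 5 members. Copies under other names were not counted. Whether reads were shared with copies, which would make the level of a member uncertain, was not tested.

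Srsf4, Srsf5 and Srsf6, known as SRp75, SRp40 and SRp55, form a related set of SR proteins. Srsf5 (MSTRG.15065) was the most abundant member, with 23.4% to 30.3% of the summed FPKM and levels from 61.61 to 76.06 over the 12 libraries. Its difference from FCA was -0.053 in AT1, 0.036 in AT10 and 0.15 in AT01, and its AT1 libraries, 66.85, 61.61 and 67.51 FPKM, were all below those of AT01, 75.28, 76.06 and 73.95. That difference was -0.20 (limma adjusted p = 1; two-sided exact permutation p = 0.1, the smallest possible), with a limma p of 0.0238 before adjustment, and 3.43% of all records had an unadjusted p under 0.05 there.

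Srsf6 (MSTRG.11942) was 14.62, 23.05 and 22.95 FPKM in FCA and 12.76, 22.83 and 13.78 in AT1. In AT10 it was 11.91, 23.73 and 15.38 FPKM, and in AT01 17.86, 11.55 and 14.75. Each group of FCA, AT1 and AT10 thus held libraries near 12 to 15 FPKM and libraries near 23, and the differences from FCA of -0.30 in AT1, -0.26 in AT10 and -0.42 in AT01 were within that spread (limma adjusted p = 0.667, 0.721 and 0.763). Srsf4 (MSTRG.14149) was 8.72, 10.21 and 4.14 FPKM in FCA and 5.08, 4.78 and 7.26 in AT1, with differences from FCA between -0.32 and -0.40 at the 3 doses and 95% intervals that all included 0. With FCA replicate 3 at 4.14 FPKM, the FCA group alone spanned most of the range of 3.3 to 10.21 FPKM of the 12 libraries. With 1 library left out, the difference of Srsf4 ran from -0.66 (without FCA replicate 3) to -0.094 (without FCA replicate 2) in AT1, from -0.69 to -0.13 in AT10 and from -0.74 to -0.13 in AT01. That of Srsf6 ran from -0.54 to -0.15 in AT1, from -0.52 to -0.047 in AT10 and from -0.63 to -0.27 in AT01.

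Srsf10 and Srsf11 were the other members of low level. Srsf10 (MSTRG.14233), or SRp38, which represses splicing when its phosphates are removed, was 4.81, 4.86 and 6.23 FPKM in FCA and 5.84, 7.14 and 8.72 in AT10, a difference of 0.38 (95% interval -0.020 to 0.78, limma adjusted p = 0.428). Its groups overlapped at 5.84 FPKM in AT10 and 6.23 in FCA, and in AT01 it ran from 3.36 to 9.96. Srsf11 (MSTRG.10154), or p54, lay between 6.56 and 8.52 FPKM in 11 libraries and at 10.14 in AT01 replicate 3, and its differences from FCA were between -0.033 and 0.077.

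In AT10 against FCA, 0 of 10 members passed an adjusted p under 0.05 by limma, against 0.172% of all records, and 0 had an unadjusted p under 0.05, against 11.9%. There, 8 of 10 had a higher mean than FCA, as had 48.2% of all records, and 2 of 10 (Srsf2 and Srsf7) were higher without overlap, against 10.7% of all records. In AT01 against FCA, 0 of 10 passed either threshold by limma (0.0947% of all records passed the adjusted one and 6.6% the unadjusted one) and 0 had groups without overlap (14% of all records), while 8 of 10 had a higher mean (50.3% of all records). In AT1 against FCA, 6 of 10 had a higher mean, beside 53.2% of all records. The median difference of the 9 members other than Srsf9 was 0.12 in AT10 and 0.077 in AT01, beside -0.0085 and 0.0017 for all records. The lowest unadjusted p among these 9 was 0.0535 in AT10 and 0.0988 in AT01 by limma (3 libraries against 3).

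The counts of 0 at the unadjusted threshold for these 9 members moved with the setting, while the adjusted p stayed above 0.05 in each case. In AT1 against FCA, Srsf1 had a limma p of 0.0313 with the replicate block and of 0.00424 without AT1 replicate 2. Without FCA replicate 3, Srsf3 had 0.0226 and Srsf4 0.0211, and Srsf6 had 0.0365 in an F test like that of Ballgown. In AT10 against FCA, the replicate block gave 0.0337 for Srsf1 and 0.0145 for Srsf10, and median-of-ratios scaling gave 0.0488 for Srsf1. Without AT10 replicate 2, Srsf1 had 0.00244 with a difference of 0.60, without AT10 replicate 1, Srsf10 had 0.0218, and without FCA replicate 3, Srsf3 had 0.0137 and Srsf10 0.0375. In AT01 against FCA, 5 members fell below the threshold under 1 setting each. These were Srsf1 (0.0486, without AT01 replicate 1), Srsf2 (0.0155, without AT01 replicate 2), Srsf3 (0.0324, 1 fit over all libraries), Srsf5 (0.0311, without FCA replicate 3) and Srsf6 (0.0229, without FCA replicate 1).

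The members differed widely in how far their libraries scattered. The highest library was 1.21 times the lowest for Srsf7, 1.23 for Srsf5, 1.55 for Srsf11, 1.69 for Srsf3, 1.71 for Srsf2, 1.97 for Srsf1, 2.05 for Srsf6, 2.64 for Srsf9, 2.96 for Srsf10 and 3.09 for Srsf4. Within groups, the SD on the log2 scale was 0.0742 for Srsf7 and 0.09 for Srsf5, lower than for most records, whose median was 0.169. It was 0.478 for Srsf4, 0.395 for Srsf6, 0.394 for Srsf10 and 0.299 for Srsf9, where AT10 replicate 2 stood apart. Of the 20 lowest and highest values of the 10 members, 11 were in AT01 libraries, 5 of them in replicate 1 and 4 in replicate 3. The same count was not made over all records, so it cannot be read as a trait of these members.

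Over the 12 libraries, which share the groups and the normalisation, the correlation of a member with Srsf9 on the log2 scale ran from -0.373 (Srsf5) to 0.262 (Srsf7). Among the 45 pairs of members, the highest correlations were 0.784 for Srsf1 with Srsf10 and 0.735 for Srsf7 with Srsf10, and the lowest were -0.721 for Srsf3 with Srsf4 and -0.57 for Srsf1 with Srsf6. The 5 tested records most like Srsf9 over these libraries, members left out, were Ddx17 (0.862), an RNA helicase that also acts in splicing, Shpk (0.83), Reep4 (0.817), Desi2 (0.797) and Ptprf (0.796). Ddx17 was 4.92, 4.45 and 4.98 FPKM in FCA and 6.48, 6.34 and 6.63 in AT1. In AT10 it was 5.02, 5.7 and 4.91 FPKM, highest in replicate 2, and in AT01 5.2, 4.65 and 5.35. Desi2 had levels of 9.61 to 11.77 FPKM in AT1 replicates 1 and 2 and AT10 replicate 2 and of 3.46 to 4.5 in the other 9 libraries. These 5 records were picked from all tested records for their likeness to Srsf9. That their levels resemble its own was thus fixed by the choice, and whether they are linked to Srsf9 was not tested.

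Records beside Srsf9 did not follow it. In RefSeq the order is Cox6a1, Triap1, Gatc, Srsf9, Dynll1 and Coq5, and Gatc had no record of that name. Dynll1, a dynein light chain, was 325.49, 341.42 and 300.47 FPKM in FCA and 287.87, 296.91 and 259.79 in AT1, all lower than FCA, and Cox6a1, a subunit of cytochrome c oxidase, was 291.52, 311.91 and 252.08 in FCA and 229.55, 235.07 and 199.28 in AT1, again lower without overlap. Coq5, of coenzyme Q synthesis, lay between 6.26 and 9.51 FPKM in all libraries. None of these 3 passed an adjusted p under 0.05 by limma in AT1 against FCA (0.0947% of all records did), 1 of the 3 had an unadjusted p under 0.05 (11% of all records), and 2 of the 3 had groups without overlap (19.9% of all records). Triap1 lay between 0 and 1.82 FPKM, under the filter, and an unnamed record next to Srsf9 between 0.09 and 1.36.

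**Figure D3:**
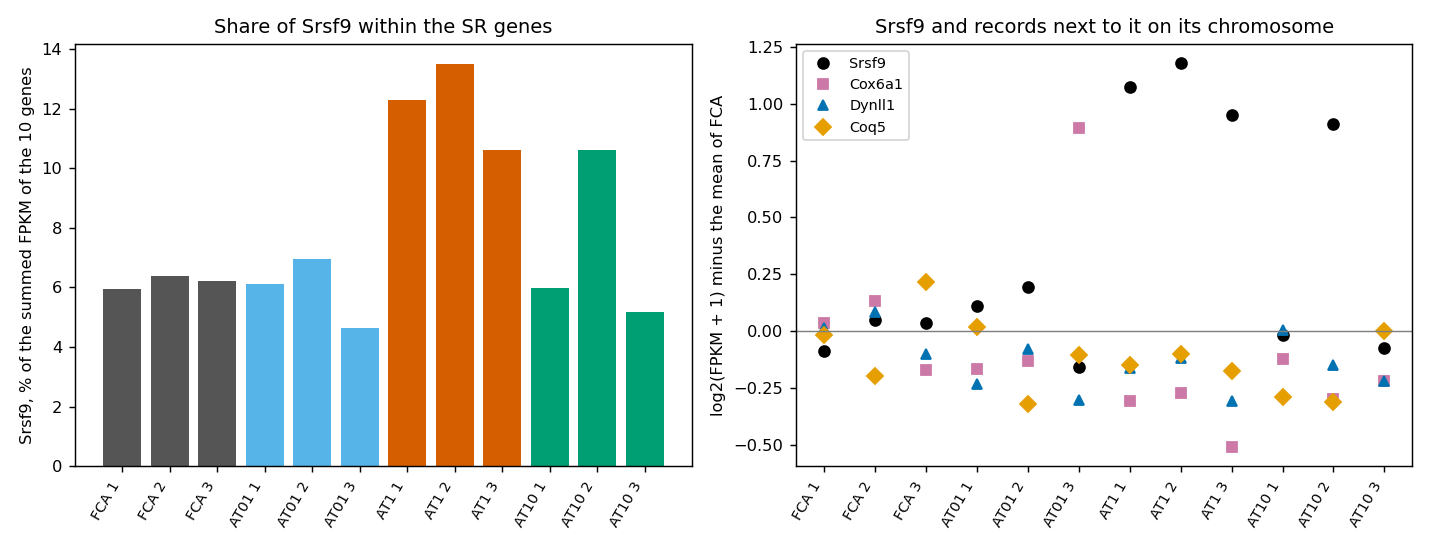
Left, Srsf9 as a percent of the summed FPKM of the 10 SR genes, 1 bar per library. Right, log2(FPKM + 1) minus the mean of the 3 FCA libraries for Srsf9 and 3 records near it on its chromosome. The bars of AT1 and of AT10 replicate 2 reach 10.6% to 13.5% and those of the other 8 libraries 4.63% to 6.97%, and Cox6a1, Dynll1 and Coq5 have no raised level in these 4 libraries.

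The genes that act with SR proteins were described by 5 lists, all with 0 genes past an adjusted p under 0.05 by limma in AT1 against FCA. In this comparison, 0.0947% of all records passed that threshold, 11% had an unadjusted p under 0.05 and 19.9% had groups without overlap. Of the kinases, phosphatases and importins of SR proteins, 11 of 14 were tested, and 3 had an unadjusted p under 0.05, all 3 higher in AT1. Prpf4b, a kinase of the spliceosome, was 2.59, 3.13 and 3.17 FPKM in FCA and 4.74, 4.34 and 5.32 in AT1, without overlap (a difference of 0.55, limma adjusted p = 0.315). Clk1, which phosphorylates the tails of SR proteins in the nucleus, was 17.41, 16.01 and 19.38 FPKM in FCA and 24.34, 19.71 and 24.82 in AT1 (0.36, adjusted p = 0.428). AT01 replicate 1 was near FCA for both, at 2.86 and 15.27 FPKM.

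Of the SR-related proteins, which carry such tails without being classical members, 18 of 21 were tested. An unadjusted p under 0.05 was found for 4, 2 higher and 2 lower, beside 11% of all records. Scaf1 differed by -0.27 (limma adjusted p = 0.42) and Son, a large protein of nuclear speckles, by 0.28 (0.428). Of the hnRNP proteins and other repressors, which often oppose SR proteins at exons, 24 of 28 were tested and 5 had an unadjusted p under 0.05, 2 higher and 3 lower. Hnrnpul1 differed by -0.18 and Hnrnph1 by 0.19, each with a limma adjusted p of 0.428.

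Of the proteins of U1, U2 and the core spliceosome, the particles that SR proteins recruit, 26 of 28 were tested. An unadjusted p under 0.05 was found for 8, 2 higher and 6 lower, beside 11% of all records. Sf3a2, a subunit of the U2 particle, was 28.1, 31.22 and 26.85 FPKM in FCA and 18.09, 18.8 and 17.52 in AT1, without overlap. Its difference of -0.63 had an unadjusted limma p of 0.000201 and an adjusted p of 0.111, and in AT10 it was 28.81, 24.32 and 19.38 FPKM and in AT01 19.1, 20.23 and 20.11. Sf3b4, of the same particle, differed by -0.29 (adjusted p = 0.362). Of the genes of NMD and the exon junction complex, all 15 were tested and 3 had an unadjusted p under 0.05, 1 higher and 2 lower. Upf1, the helicase of NMD, differed by -0.20 (limma adjusted p = 0.42), and Magoh, of the exon junction complex, by 0.72 (0.421), with a level of 61.58 FPKM in FCA replicate 2 and of 35.93 and 36.8 in the other FCA libraries.

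The median difference in AT1 was 0.081 for the kinases, phosphatases and importins, 0.092 for the SR-related proteins, 0.036 for the hnRNP proteins, -0.047 for the core spliceosome and 0.031 for NMD and the exon junction complex, beside 0.016 for all records. Of all records tested, 11% had an unadjusted p under 0.05 in this comparison, and no tested gene of the 5 lists reached the difference of 1.07 of Srsf9.

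**Figure D4:**
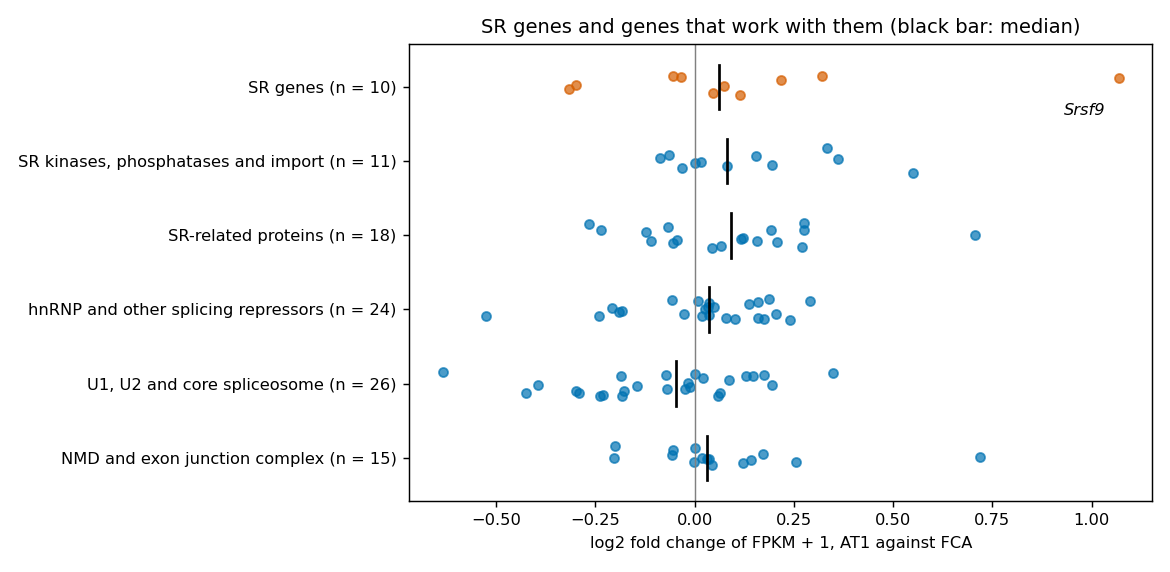
Difference between AT1 and FCA on the log2(FPKM + 1) scale (horizontal axis) for the 10 SR genes and for the tested genes of 5 lists of genes that act with them, 1 point per gene, with the median as a black bar (vertical scatter within a row has no meaning). Srsf9 lies alone at 1.07, and the medians of the rows lie between -0.047 and 0.092.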

How the data were processed

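Poly(A) RNA of FLS was sequenced in 12 libraries, 3 per group. The authors removed low-quality reads, aligned with HISAT2 and estimated expression with StringTie and Ballgown. The deposited values are FPKM, given by the authors to 2 decimals for each gene record, and no scaling between libraries is stated. The labels also list cutadapt and a count-based test that was not used here, and they differ from the paper in sequencer and in amount of RNA. Read counts and the genome build are not given in the sources used here, so no count test and no counting interval was used, and the records are given without coordinates.

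Values were transformed as log2(FPKM + 1), which understates changes of low genes. The 11611 records whose 12 libraries averaged 1 FPKM or more entered limma 3.58.1 in R 4.3.3 (lmFit, then eBayes with its trend option), each comparison in its own fit, with Benjamini-Hochberg adjustment over all of them. A two-sided exact permutation test over libraries stood beside it. Intervals of 95% came from the same fits. The remaining steps used Python 3.11.15 with NumPy 2.4.6, SciPy 1.17.1, pandas 2.3.3 and Matplotlib 3.10.9. The fits were tested on simulated data.

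The members, the lists and the tests were chosen with earlier results of these data known. The text names all members, 2 genes of each splicing list by smallest p in AT1 against FCA where none passed, the 5 records that correlate best with Srsf9, the records of Nr3c1 and the neighbours of Srsf9. Alternatives were to leave out each library, to block on the replicate number, to sum FPKM by name, to scale by median of ratios, to add 0.1 before the log2, to filter at 10 FPKM or not at all, to fit all libraries together and to use an unmoderated F test like that of Ballgown. The q-PCR and western blot measurements were not analysed here. Protein sequences were not used here.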

Additional observations from a re-analysis of the deposited data

Results flagged for a closer look

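Among the 9 TCDCA libraries, 3 members had 1 library far from the others, by the gap to the nearest library divided by the whole range (Dixon's test). That test flags about 1 in 20 groups by chance when all libraries come from 1 population, whereas these 9 libraries mix 3 doses. The same test was not run over all records, so the 3 flags cannot be read as a trait of these members. Srsf3 was 35.18 FPKM in AT01 replicate 1, with the next library at 26.56 and a gap of 0.802 of the range. Srsf7 was 21.08 FPKM in the same library, where the next was 23.56 (0.552 of the range). Srsf11 was 10.14 FPKM in AT01 replicate 3, where the next was 8.52 (0.526 of the range).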

How the results depend on the processing

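The rise of Srsf9 in AT1 against FCA kept its direction under every alternative run, with 1.01 to 1.13 when a library was left out, but it no longer passed the adjusted threshold without a filter (1.07, limma adjusted p = 0.0738), in 1 fit over all libraries (1.07, adjusted p = 0.314), in the Ballgown-style F test (1.05, adjusted p = 0.116) and with the replicate block (1.07, limma adjusted p = 0.323). The count of members past that threshold was then 0 in place of 1, and 0 to 1 with a library left out. The paper ties the replicate numbers to sets of repeated studies without saying what a set shared. Over all tested records, the deviations of 18 pairs with the same number correlated between -0.105 and 0.094. Of the 12 libraries, 3 correlated best with their own number, so these records as a whole gave no sign of pairing. Single members can differ from that whole, and replicate 3 was highest in all 4 groups for Srsf1 and Srsf10. How many of all records show the same was not counted, and the levels of this pair correlated at 0.784 over the 12 libraries. With the block, the SE in AT1 against FCA fell from 0.28 to 0.16 for Srsf6 and rose from 0.14 to 0.17 for Srsf2. At the adjusted threshold, the block changed no other call of a member. With a library left out, Srsf9 ran from -0.044 to 0.45 in AT10 against FCA, from -0.024 to 0.15 in AT01 against FCA, from -0.093 to 0.40 in AT10 against AT01, from -1.11 to -0.62 in AT10 against AT1 (0 to 1 members past either threshold) and from 0.92 to 1.09 in AT1 against AT01 (0 to 1 past the cut-off of the study, and 0 in the Ballgown-style test). In AT01 against FCA, that test turned Srsf7 to -0.024, Srsf10 to -0.15 and Srsf11 to -0.048, and the cause was not tested. None of the other 9 members passed the adjusted threshold in a comparison with FCA under the alternatives run, and with a library left out the sign turned for Srsf5 (-0.096 to 0.013), Srsf10 (-0.066 to 0.19) and Srsf11 (-0.13 to 0.025) in AT1, for Srsf5 (-0.012 to 0.10) and Srsf11 (-0.020 to 0.13) in AT10, and for Srsf1 (-0.029 to 0.36), Srsf7 (-0.024 to 0.093), Srsf10 (-0.29 to 0.38) and Srsf11 (-0.087 to 0.15) in AT01. Median-of-ratios scaling moved a level by at most 2.98%. Depth per value is unknown.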

Other observations

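Nr3c1, the gene of the glucocorticoid receptor, had 2 records. The record MSTRG.8116 was 7.15, 5.39 and 7.74 FPKM in FCA and 9.09, 10.35 and 10.16 in AT1, a difference of 0.50 without overlap (limma adjusted p = 0.42). In AT10 it was 6.53, 7.9 and 9.54 FPKM and in AT01 8.89, 9.48 and 8.74, where it was again above all FCA libraries. A higher level without overlap was found for 9.87% of all records in AT1. In AT01, 14% of all records had no overlap with FCA in either direction. The record MSTRG.8108 was 4.26, 15.09 and 3.17 FPKM in FCA and 6.26, 14.74 and 3 in AT1, with a difference of 0.12 (limma adjusted p = 0.956) and replicate 2 highest in both groups. Neither record passed the adjusted threshold, and a record is a locus of the authors' assembly and not a receptor isoform.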
